A study of Mus musculus with 2 samples.

Results

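*Meis1*, *Meis2*, *Meis3*, *Pbx2* and *Pbx3* encode homeodomain transcription factors of the Meis and Pbx groups. They were chosen by gene family and not by their measured levels, and they are 5 of the 32285 genes counted in the adult vomeronasal organ (VNO), the chemosensory organ at the base of the nasal cavity. Their levels were followed through the neural lineage and in sustentacular (supporting), basal, endothelial and stromal cells. Whole VNOs came from wild-type C57BL/6J males at postnatal day (P) 60, and cryopreserved cells were captured as 2 droplet-based single cell RNA-sequencing libraries, with 10000 cells targeted for each. The protocol names 5 VNOs, but how the mice were divided between the libraries is not stated in the labels or methods. The p-values therefore measure the spread between these 2 libraries, which may be technical.

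Meis and Pbx proteins belong to the TALE class of homeodomain factors, which carry an extra loop of amino acids within the homeodomain. Meis and Pbx proteins bind each other and bind DNA together, Meis proteins help to bring Pbx proteins into the nucleus, and both act as partners of Hox proteins and of other transcription factors during patterning and neurogenesis. In the VNO, Meis2 protein is known as a marker of apical vomeronasal sensory neurons (VSNs), which carry V1R receptors, whereas basal VSNs carry V2R receptors and use the transcription factor Tfap2e.

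Every member is protein coding in the GENCODE annotation of mm10. *Meis1* (ENSMUSG00000020160) lies at chr11:18879817-19018985 and *Meis2* (ENSMUSG00000027210) at chr2:115863064-116065839, both on the minus strand. *Meis3* (ENSMUSG00000041420) lies at chr7:16175090-16186504 on the plus strand, *Pbx2* (ENSMUSG00000034673) at chr17:34591266-34597400 on the plus strand, and *Pbx3* (ENSMUSG00000038718) at chr2:34171457-34373142 on the minus strand. Over all barcodes *Meis2* had 76965 unique molecular identifiers (UMIs, each marking 1 captured mRNA molecule), against 5376 for *Meis1*, 1799 for *Meis3*, 2862 for *Pbx2* and 5426 for *Pbx3*. *Meis1*, *Pbx2* and *Pbx3* each overlap other gene models, and no source at hand says whether counting used strand.

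Upstream sequence is shown for the members with a RefSeq promoter entry (build GRCm38.p6) whose level differed between the apical and basal branches. Of the 5 members, 4 had an entry, and only the longest stretch before the start that no annotated exon covers was kept, written 5′ to 3′ on the strand of the gene. Both strands were searched for TGACA (a Meis-type motif), TGAT (a Pbx-type motif) and CANNTG (the E-box of bHLH factors such as Neurog1 and Neurod1), and capitals mark a match. The stretches lie at chr11:19018986-19019219 for *Meis1*, directly upstream of its gene model, at chr2:116064722-116064801 for *Meis2*, within its longer GENCODE gene model, and at chr17:34592009-34592258 for *Pbx2*, also within its GENCODE gene model.
Meis1: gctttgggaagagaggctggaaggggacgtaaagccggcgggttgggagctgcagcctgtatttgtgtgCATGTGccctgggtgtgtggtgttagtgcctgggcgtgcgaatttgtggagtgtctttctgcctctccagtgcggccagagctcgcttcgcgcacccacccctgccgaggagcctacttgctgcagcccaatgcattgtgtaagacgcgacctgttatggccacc
Meis2: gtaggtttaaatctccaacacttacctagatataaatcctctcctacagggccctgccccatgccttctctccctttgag
Pbx2: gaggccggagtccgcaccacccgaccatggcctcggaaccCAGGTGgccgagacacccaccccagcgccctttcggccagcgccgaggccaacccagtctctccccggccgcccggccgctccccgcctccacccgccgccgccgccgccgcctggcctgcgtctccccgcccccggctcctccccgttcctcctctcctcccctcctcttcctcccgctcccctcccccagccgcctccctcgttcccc
The *Meis1* stretch of 234 bases held 1 CANNTG match and no TGACA or TGAT. Over all 32851 RefSeq windows cut to the same length, 64.0% held CANNTG, 38.4% TGACA and 67.1% TGAT. The *Pbx2* stretch of 250 bases, with a GC content of 77.6%, also held 1 CANNTG match (present in 66.2% of windows) and neither TGACA (40.0%) nor TGAT (68.7%). The *Meis2* stretch of 80 bases held no match to any of the motifs, which 29.8% (CANNTG), 15.3% (TGACA) and 33.9% (TGAT) of windows held. These are matches of letters in short windows and not measured binding sites.

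The libraries held 108005626 and 95442231 UMIs in 12814 and 11270 barcodes, of which 5694 and 4898 cells passed the filter, with medians of 6668 and 6650 UMIs per cell. Of the barcode sequences, 33 occurred in both libraries, 3 of them among kept cells. Clusters were named from marker genes, so each name stands for cells like that type (the suffix is left out below), and 2579 of 10592 kept cells stayed unnamed. The members and their families were kept out of the clustering and the naming. Gene models that overlap a member were not removed before clustering. The 11 groups described held 4238 cells: 42 progenitors, 85 precursors, 148 early immature VSNs, 180 immature apical and 154 immature basal VSNs, 594 mature apical and 109 mature basal VSNs, 282 sustentacular, 1306 basal, 783 endothelial and 555 stromal cells. Levels are UMI counts-per-million (CPM) within the group, given for library 1 and then library 2, and genes are compared as UMIs of mRNA 3′ ends, without a correction for length.

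The marker lists that gave the names also describe how far the groups were set apart. Since the names came from these lists, the sums are no independent check of the labels. Apical markers summed to 2226 and 2445 CPM in immature apical VSNs against 504 and 532 CPM in immature basal VSNs, and to 4032 and 4207 CPM against 163 and 87.6 CPM in the mature groups. Basal VSN markers separated the branches less, at 1438 and 1815 CPM in immature basal against 801 and 846 CPM in immature apical VSNs. In the mature groups they stood at 2935 and 2768 CPM against 1411 and 1386 CPM. These sums hold no V1R genes and, of the V2R genes, only *Vmn2r1* and *Vmn2r2*. The summed receptor genes counted only in the naming, where the mature basal cluster raised 7 of 7 basal VSN markers. Early immature VSNs carried both lists, with 1077 and 1031 CPM of apical and 873 and 1141 CPM of basal markers. The precursor cluster was led by *Mcidas*, *Ccno* and *Foxj1*, genes of multiciliated cells, and the sustentacular group raised 3 of its 9 markers, together with 3 of 5 markers of non-sensory epithelium. Sustentacular markers summed to 5656 and 5371 CPM in sustentacular cells and to nearly as much, 4706 and 4360 CPM, in basal cells. Basal cell markers set these groups apart, at 4957 and 5295 CPM in basal against 55.9 and 86.2 CPM in sustentacular cells. The progenitor cluster also raised 4 of 9 sustentacular markers, and the stromal clusters raised lists of both fibroblasts and mural cells. The part of any of these in the member levels was not tested.

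*Meis2*, which encodes the member known from apical VSNs, had the most UMIs of the members in each of the 11 groups but the basal VSNs, and it spanned the widest range. It reached 2112 and 1985 CPM in immature apical VSNs and 1785 and 1384 CPM in early immature VSNs, then 778 and 736 CPM in mature apical VSNs. In basal VSNs it stood at 13.7 and 24.6 CPM in the immature group and at 16.8 and 25.8 CPM in the mature group. Both basal groups lay near macrophages, a cell type in which *Meis2* is taken as free-RNA background, at 8.88 and 11.1 CPM. Outside the neurons *Meis2* was at 289 and 329 CPM in basal cells, 226 and 273 CPM in sustentacular cells and 229 and 271 CPM in stromal cells. Endothelial cells held 42.4 and 55.4 CPM. Of the groups not split by branch, precursors held 393 and 433 CPM and progenitors 208 and 105 CPM. Ordered by level, neighbouring groups did not overlap between libraries, except that sustentacular overlapped stromal cells and mature basal overlapped immature basal VSNs.

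**Figure D1:**
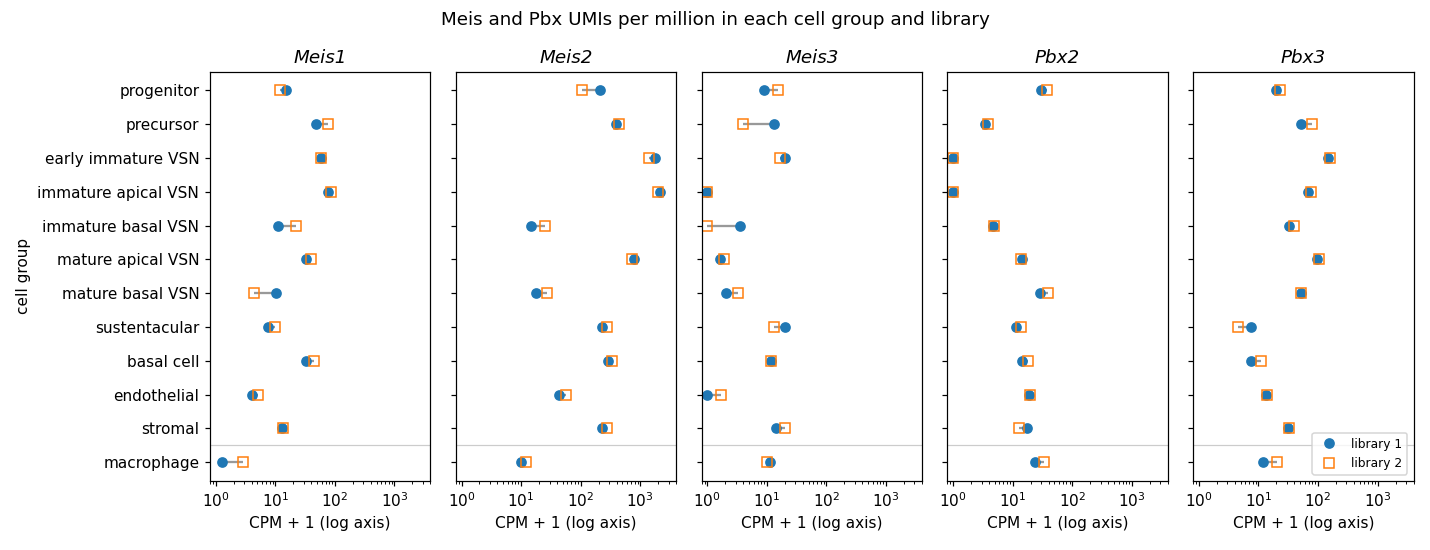
Levels in counts-per-million (CPM + 1, log axis) of the 5 members in each cell group, with a filled circle for library 1, an open square for library 2 and a grey line joining them. *Meis2* lies highest in early immature and immature apical VSNs (1384 to 2112 CPM) and, macrophages apart, lowest in both basal VSN groups (13.7 to 25.8 CPM), and both libraries are at 0 for *Pbx2* in early immature and immature apical VSNs. Macrophages are plotted last as a background for *Meis1* and *Meis2*.

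The share of cells with a *Meis2* UMI was likewise highest in apical VSNs. In immature apical VSNs 100% of cells held 1 (95% exact binomial interval 98.0% to 100%, which like every interval here covers counting error only), and 98.3% did after every cell was thinned to 3000 UMIs. In mature apical VSNs 99.5% of cells held 1, and 85.8% after thinning. In immature basal VSNs the shares were 7.79% and, thinned, 4.73%, and in mature basal VSNs 11% and 2.78%. Macrophages gave 3.38% and 2.23% at a median of 4510.5 UMIs per cell, against medians of 8630.5 and 17162 UMIs in the basal VSN groups. The thinned share of mature basal VSNs was thus close to that of macrophages, although its level in CPM was higher in both libraries. Early immature VSNs were mixed, with *Meis2* in 62.8% of cells (64.0% thinned), and so were precursors, with 49.4% (44.6% thinned).

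*Meis1* encodes a close relative of Meis2 and was present at far lower levels with a similar bias. It was at 74.3 and 84.6 CPM in immature apical VSNs, at 47.6 and 75.5 CPM in precursors and at 58.0 and 57.3 CPM in early immature VSNs, and immature apical VSNs and precursors overlapped. Mature apical VSNs held 31.4 and 38.8 CPM, overlapping the 31.4 and 42.7 CPM of basal cells. Immature basal VSNs held 9.99 and 20.8 CPM, which overlapped progenitors (14.1 and 10.9 CPM) and stromal cells (11.8 and 12.3 CPM). The lowest levels were in mature basal VSNs (9.43 and 3.37 CPM), sustentacular cells (6.57 and 8.79 CPM) and endothelial cells (3.03 and 4.03 CPM), each above macrophages (0.269 and 1.90 CPM). After thinning, *Meis1* was found in 23% of immature apical VSNs, 10.1% of basal cells and 0.447% of macrophages, and unthinned in 46.1%, 25.7% and 0.475%. Immature apical and basal cells had medians of 8926.5 and 8523 UMIs.

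The noncoding models *Gm16140* and *Gm16141* overlap *Meis1* on the opposite strand and had their highest levels among the VSN groups in the same cells. *Gm16141* stood at 125 CPM in immature apical VSNs (146 and 95.4 CPM) and at 11.9 CPM in mature apical VSNs, and it had no UMI in either basal VSN group. Without knowing whether strand was used in counting, reads of *Meis1* and of these models cannot be told apart. *Gm16141* was also not removed before clustering, and it was the first leading gene of the immature apical cluster of 119 cells. Its part in the grouping was not tested.

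*Meis3*, the least abundant member, was found in few cells of any group. It stood at 19.2 and 12.3 CPM in sustentacular cells, 18.8 and 15.5 CPM in early immature VSNs and 13 and 19 CPM in stromal cells, which overlapped. Basal cells held 10.6 and 10.7 CPM. In immature apical VSNs *Meis3* was found in 0 of 180 cells, where a floor of 3 counts gives 1.67% of cells with a UMI (which does not limit the share of cells that express the gene), and it had 2 UMIs in immature basal VSNs, 6 in mature apical VSNs, 3 in mature basal VSNs and 2 in endothelial cells. No cell type is sure to lack *Meis3*, *Pbx2* or *Pbx3*, so their background is not known. The thinned share with *Meis3* was 5.60% in stromal, 5.04% in early immature, 4.01% in sustentacular and 3.04% in macrophage cells, against unthinned shares of 11.2%, 11.5%, 17.4% and 4.22%.

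*Pbx2*, a broadly expressed Pbx gene, was found mainly at both ends of the neural lineage. It was at 28.3 and 36.3 CPM in progenitors and at 27.2 and 38.2 CPM in mature basal VSNs, which overlapped, and at 13.6 and 12.9 CPM in mature apical VSNs. Between these stages few UMIs were found. Precursors had 2 UMIs, early immature VSNs had 0 of 148 cells with a UMI (a floor of 2.03%, again for 3 counts) and immature apical VSNs 0 of 180 (a floor of 1.67%), while immature basal VSNs had 5 UMIs. Non-neuronal levels lay in a narrow range, at 17.8 and 18.8 CPM in endothelial, 13.6 and 16.8 CPM in basal, 16.1 and 11.8 CPM in stromal and 10.4 and 12.9 CPM in sustentacular cells. Progenitors and mature basal VSNs were also the deepest of the 11 groups, with medians of 18146.5 and 17162 UMIs. After thinning, *Pbx2* was found in 11.9% of progenitors and 9.26% of mature basal VSNs (45.2% and 36.7% unthinned), and in 4.23% of mature apical VSNs. The thinned share of mature basal VSNs differed between libraries, at 1.82% in library 1 and 17% in library 2, against 4.88% and 3.42% in mature apical VSNs. *Gpsm3* overlaps *Pbx2* on the same strand and was at or under 4.25 CPM (pooled) in the epithelial groups, 18.3 CPM in endothelial and 23.4 CPM in stromal cells.

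*Pbx3*, which encodes a Pbx protein of many developing neurons, was foremost a gene of the neurons. It stood highest in early immature VSNs, at 145 and 158 CPM, followed by 93.6 and 104 CPM in mature apical VSNs and 66.8 and 73.9 CPM in immature apical VSNs. The level was 50.01 and 78.4 CPM in precursors, 50.3 and 51.7 CPM in mature basal VSNs and 31.2 and 37.9 CPM in immature basal VSNs. Immature apical VSNs, precursors and mature basal VSNs formed a run of overlapping neighbours. Stromal cells, at 30.3 and 31.8 CPM, overlapped immature basal VSNs and stood above the other non-neuronal groups, which ranged from 3.52 CPM in sustentacular to 13.1 CPM in endothelial cells. After thinning *Pbx3* was found in 38.8% of early immature VSNs, 26.4% of mature apical VSNs and 11.1% of mature basal VSNs, against 1.46% of sustentacular cells (59.5%, 70.9%, 55.0% and 5.67% unthinned). The gene model *C79798*, which overlaps *Pbx3* on the other strand, had no UMI in these groups.

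**Figure D2:**
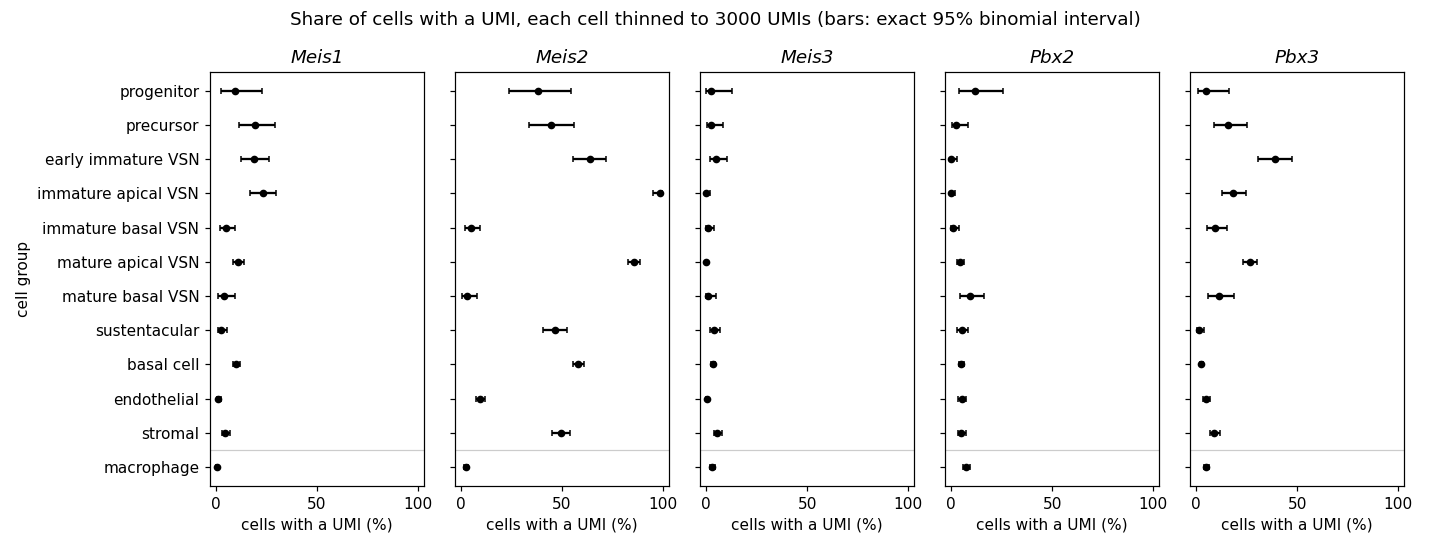
Percent of cells with at least 1 UMI of each member after thinning every cell to 3000 UMIs, by cell group, with the exact 95% binomial interval as a bar. Among the 11 groups described, *Meis2* fills nearly the whole range, from 98.3% in immature apical to 2.78% in mature basal VSNs. In these groups *Pbx3* peaks in early immature VSNs at 38.8%, and *Meis3* and *Pbx2* stay under 12%. Macrophages are plotted last.

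The first comparison asked whether the members differed between the apical and basal branches among immature VSNs. *Meis2*, *Meis1* and *Pbx3* were all higher in immature apical than in immature basal VSNs, so that 3 of the 3 members with enough UMIs to test were called, where edgeR called 7.61% of 10527 genes, 3.69% as higher and 3.92% as lower in apical cells. *Meis2* was 114-fold higher (counting interval 76.5 to 178), a log2 fold change of 6.75 ± 0.20 (SE, 2 sums per group) and an adjusted p of 1.07e-13. The basal level behind this fold came from 24 UMIs in 12 cells, and 10 of these UMIs came from 1 cell. The counting interval treats UMIs as independent and does not cover this. The log2 difference was 5.20 with a mitochondrial limit of 10%, 5.18 without doublets and 5.15 with the members in the clustering, each of them called. *Meis1* differed by 2.38 ± 0.34 on the log2 scale (adjusted p = 0.000123). *Pbx3* differed by 0.99 ± 0.27 (adjusted p = 0.0300), and each was higher in both libraries. *Meis3* (0 against 2 UMIs) and *Pbx2* (0 against 5 UMIs) had too few UMIs for a test. With the library as a block the count of called genes rose from 801 to 1339 and no member's call changed. *Pbx3* was not called by DESeq2 (adjusted p = 0.395), after thinning (0.285) or with the members left in the clustering (0.0574), whereas its other alternatives gave adjusted values under 0.05.

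The same members separated the mature branches, and *Pbx2* went the other way. Of the 4 members tested, *Meis2*, *Meis1* and *Pbx3* were higher and *Pbx2* lower in mature apical VSNs, while edgeR called 9.73% of 12693 genes, 4.03% as higher and 5.70% as lower in apical cells. The log2 difference of *Meis2* was 5.07 ± 0.17 (adjusted p = 6.57e-06). *Meis1* differed by 2.33 ± 0.38 (adjusted p = 0.0104), with log2 values of 1.58 and 3.21 in libraries 1 and 2, and its basal level rested on 12 UMIs. *Pbx3*, the neuronal Pbx gene, differed by 0.86 ± 0.14 (adjusted p = 0.00999). *Pbx2* was lower by a log2 of -1.38 ± 0.24 (adjusted p = 0.0134), in both libraries. *Meis3*, at 6 against 3 UMIs, was not tested. The block raised the count of called genes from 1235 to 2441 and changed no member's call. After thinning, *Meis1*, *Pbx2* and *Pbx3* kept their pooled direction without passing the threshold (adjusted p = 0.205, 0.578 and 0.102), and under every other alternative they were called. For *Pbx2* the thinned direction held in library 2 alone, at 11.4 CPM in apical against 56.6 CPM in basal cells, while library 1 gave 16.3 against 6.06 CPM, the latter from 1 UMI. Without scaling factors 51.9% of called genes were higher in apical cells, against 41.4% with them.

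**Figure D3:**
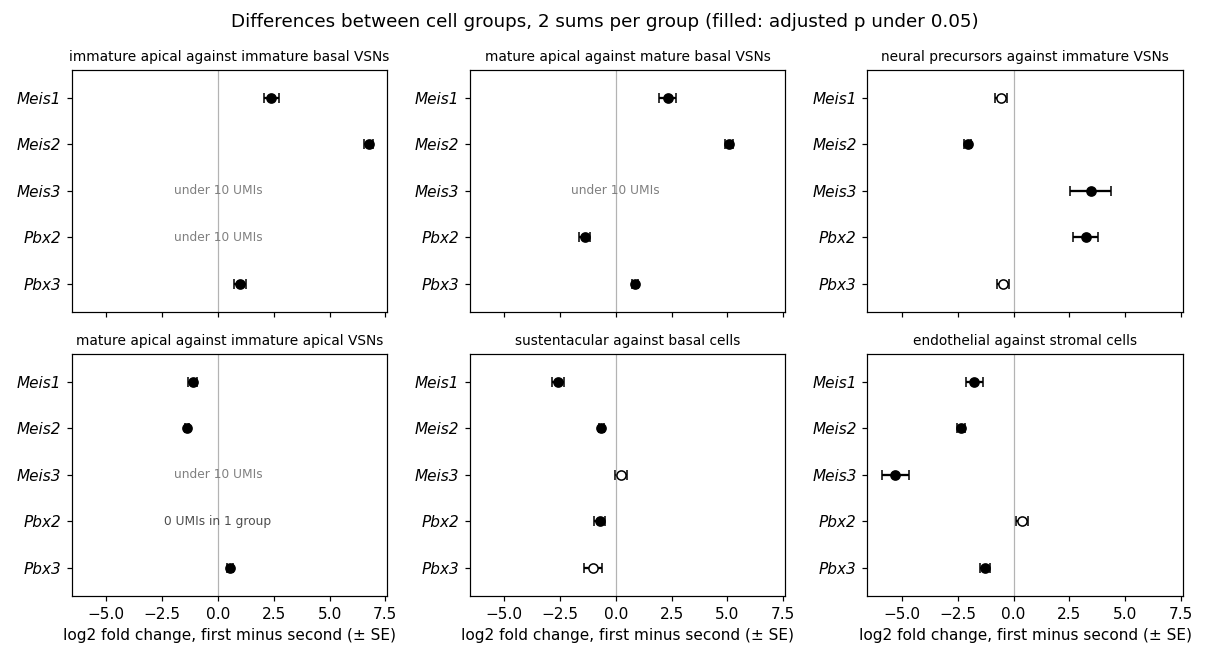
Log2 fold change (first group minus second, bar ± SE, edgeR, 2 sums per group) of each member in the 6 comparisons, filled where the adjusted p was under 0.05 and open where it was not. *Meis2* and *Meis1* lie right of 0 in both branch comparisons (*Meis2* at 6.75 and 5.07), *Pbx2* lies left of 0 in mature VSNs (-1.38), and all but *Pbx2* lie left of 0 in endothelial against stromal cells; members without enough UMIs, or with 0 UMIs in 1 group, carry a note instead of a point.

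Whether the branch difference changed between immature and mature VSNs was tested as an interaction, in which edgeR called 1.29% of 13378 genes, 0.583% upwards and 0.710% downwards. *Meis2* was the only member called, with a branch difference smaller by a log2 of -1.68 ± 0.34 in mature VSNs (adjusted p = 0.0330). The immature basal level was 18.1 CPM, but 53.0 CPM with a mitochondrial limit of 10% and 53.7 CPM without doublets, and the interaction was not called under 5 alternatives, these included. For *Meis1* the change was -0.06 ± 0.66 and for *Pbx3* -0.12 ± 0.26, neither past the threshold (adjusted p = 1.00 and 0.943). *Pbx2*, with its 0 UMIs in immature apical VSNs, was not called either (adjusted p = 0.398). The block raised the count of called genes from 173 to 672.

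Precursor stages (progenitors and precursors summed) were then set against immature VSNs (apical and basal summed, early immature VSNs left out). *Meis2* was lower, and *Meis3* and *Pbx2* were higher, in precursor stages (with exceptions for *Meis2* and *Meis3* given below), so that 3 of 5 members were called, where 39.0% of 12143 genes were, 18.7% as higher and 20.2% as lower. *Meis2* stood at 281 and 287 CPM against 1140 and 1106 CPM, a log2 difference of -2.06 ± 0.15 (edgeR, adjusted p = 6.06e-07). This sum mixes the branches, and immature basal VSNs alone held far less *Meis2* than precursors did. In a fit of all groups, which averages the log levels of the branches, the difference turned to 0.39 (adjusted p = 0.203), whereas the other alternatives kept its direction and call. *Pbx2* had 30 UMIs against 5, or 10.4 times the level (counting interval 4.0 to 34.4), with a log2 difference of 3.23 ± 0.55 (adjusted p = 0.000616). Most of the 30 UMIs, 28, came from progenitors, whose median depth was 18146.5 UMIs against 8926.5 in immature apical and 8630.5 in immature basal VSNs. After thinning, *Pbx2* was found in 5 of 42 progenitors, 2 of 83 precursors, 0 of 178 immature apical and 1 of 148 immature basal VSNs. *Meis3* had 15 UMIs against 2, a ratio of 13 (3.03 to 117), with an edgeR adjusted p of 0.00986. Its log2 values were 2.74 and 4.28 in libraries 1 and 2, and DESeq2 (0.102) and a resolution of 0.5 (0.125) did not call it. Thinned cells with *Meis3* were few, at 1 progenitor, 2 precursors, 0 immature apical and 1 immature basal VSN. Both *Pbx2* and *Meis3* reached the 10 UMIs needed through precursor stages alone, which favoured a call as higher. *Meis1* (-0.56 ± 0.27, adjusted p = 0.126) and *Pbx3* (-0.48 ± 0.26, adjusted p = 0.168) did not pass. With the library as a block *Meis1* was called (-0.56, adjusted p = 0.0442), and with a mitochondrial limit of 10% both were (adjusted p = 0.0323 for *Meis1* and 0.0444 for *Pbx3*). At a resolution of 0.5, which left no progenitor group, the differences of *Meis1* and *Pbx3* turned to 0.19 and 0.18.

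Within the apical branch, *Meis1* and *Meis2* were lower and *Pbx2* and *Pbx3* higher in mature than in immature VSNs. All 4 members tested were called, where edgeR called 37.0% of 12744 genes, 20.7% as higher and 16.4% as lower in mature cells. *Meis2* fell by 1.38 ± 0.10 on the log2 scale (adjusted p = 1.59e-06) and *Meis1* fell by 1.13 ± 0.19 (adjusted p = 0.000827), in both libraries. *Pbx3* rose by 0.54 ± 0.15 (adjusted p = 0.0167), which DESeq2 (adjusted p = 0.0908) and thinning (0.137) did not call while the other alternatives did. *Pbx2* rose from 0 to 107 UMIs, at least 6.99-fold against a floor of 3 UMIs over the immature group (adjusted p = 0.000372). *Pbx2* reached the 10 UMIs needed through the mature group alone, so higher was the only direction open to a call. *Meis3*, with 0 and 6 UMIs, was not tested. Median depth was also higher in mature than in immature apical VSNs, at 13507.5 against 8926.5 UMIs per cell. Its part was not tested beyond thinning, after which *Pbx2* was found in 0 of 178 immature and 4.23% of mature apical VSNs.

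**Figure D4:**
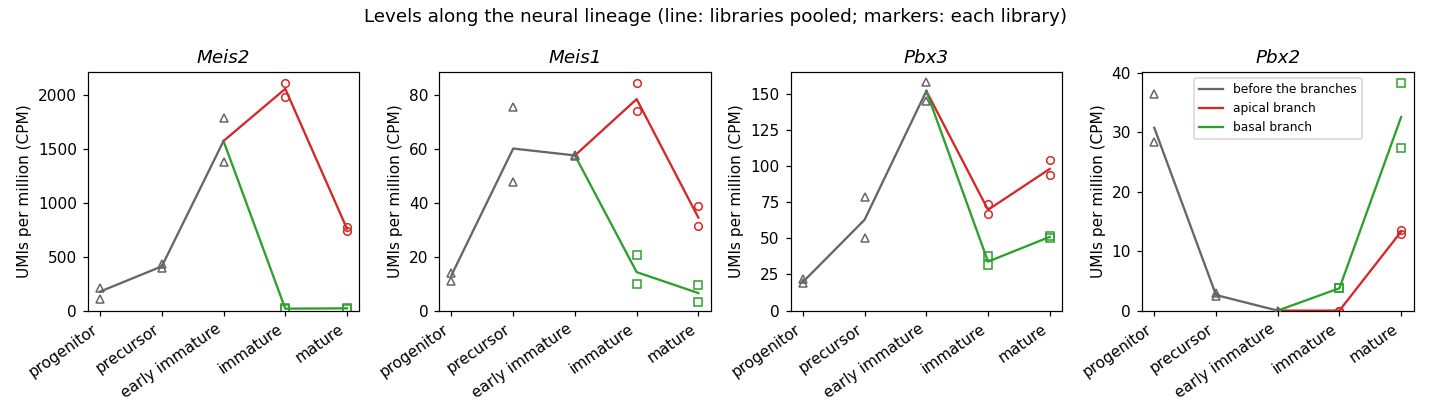
Levels in counts-per-million (CPM, linear axes that differ between panels) of *Meis2*, *Meis1*, *Pbx3* and *Pbx2* in the groups of the neural lineage, with the line at the pooled value and open markers for each library (grey triangles for groups not split by branch, red circles apical, green squares basal). The legend calls the grey groups before the branches, but they may hold cells of both branches. Lines join groups in their developmental order and not measured times. *Meis2* and *Meis1* stay high only on the apical line, *Pbx3* peaks at the early immature stage (152 CPM), and *Pbx2* dips to 0 between progenitors (30.7 CPM) and mature VSNs.

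Sustentacular and basal cells, the other epithelial groups, differed most in *Meis1*. Of the 5 members, *Meis1*, *Meis2* and *Pbx2* were called lower in sustentacular cells, where edgeR called 40.2% of 13800 genes, 19.7% as higher and 20.5% as lower. *Meis1* differed by a log2 of -2.59 ± 0.27 (adjusted p = 4.32e-05), from 6.57 and 8.79 CPM to 31.4 and 42.7 CPM in basal cells. *Meis2*, high in both, differed by -0.64 ± 0.12 (adjusted p = 0.00220) and *Pbx2* by -0.71 ± 0.25 (adjusted p = 0.0446). Without scaling factors all genes shifted by 0.33 (log2) towards sustentacular cells, the share of called genes that were higher there moved from 49.0% to 68.7%, and *Meis2* (-0.31, adjusted p = 0.0640) and *Pbx2* (-0.38, adjusted p = 0.282) were no longer called, whereas *Meis1* was (-2.27, adjusted p = 0.000135). *Meis2* was called under every other alternative, and *Pbx2* was also not called under 5 others, with adjusted p between 0.0581 and 0.607. *Meis3* (0.24 ± 0.27, adjusted p = 0.510) and *Pbx3* (-1.03 ± 0.40, adjusted p = 0.0656) did not pass. *Pbx3* rested on 18 and 95 UMIs, and 4 alternatives called it, with adjusted p from 0.000303 to 0.0480. *Meis3* was called with a mitochondrial limit of 10% (0.68, adjusted p = 0.00481).

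Endothelial cells held less of 4 members than stromal cells did, and *Pbx2* was the member that did not pass the threshold. edgeR called 41.1% of 13662 genes in this comparison, 19.4% as higher and 21.7% as lower in endothelial cells. *Meis2* was lower in endothelial cells by a log2 of -2.35 ± 0.17 (adjusted p = 4.43e-09) and *Meis1* by -1.75 ± 0.37 (adjusted p = 0.00104). *Meis3* had 2 UMIs (both from library 2) in endothelial and 70 in stromal cells, for a ratio of 0.0228 (counting interval 0.00271 to 0.0855, adjusted p = 1.94e-06). *Meis3* reached the 10 UMIs needed through stromal cells alone, which favoured a call as lower. *Pbx3* differed by -1.27 ± 0.23 (adjusted p = 0.000266), although not after thinning (adjusted p = 0.0524). For *Pbx2* the difference was 0.37 ± 0.26 (adjusted p = 0.293). Each called member was lower in both libraries.

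Clusters within a group were not uniform. Of the stromal clusters, the larger (380 cells) held *Meis1* at 18.3 and 16.8 CPM and *Meis2* at 268 and 326 CPM, and the smaller (175 cells) held *Meis1* at 1.05 and 4.30 CPM and *Meis2* at 163 and 172 CPM. *Pbx3* went the other way, with 26.5 and 21.6 CPM in the larger and 36.6 and 50.2 CPM in the smaller. Among endothelial cells, the cluster of 36 cells led by *Ccl21a*, *Mmrn1*, *Lyve1* and *Prox1*, genes known from lymphatic endothelium, held *Meis2* at 124 and 227 CPM, against pooled levels of 47.5 and 37.4 CPM in the other clusters. In immature apical VSNs *Meis2* was at 2542 and 2522 CPM in the cluster of 119 cells and at 1294 and 1196 CPM in that of 61 cells. These are descriptions of clusters drawn from the same cells, without a test.

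Other TALE genes and the Pbx-binding *Pbxip1* were counted as a list of 13. A gene whose UMIs lay in 1 group only could be called in 1 direction alone. Between immature branches 1 of 4 tested was called, where 7.61% of all genes were. This was the Meis-related *Pknox2*, higher in apical cells (2.62 ± 0.64, edgeR, adjusted p = 0.0151). The median log2 difference was 0.49 over the list, 2.38 over the 3 members tested and 0.00 over all genes. Between mature branches 1 of 5 was called, where 9.73% of all genes were. This was the repressor gene *Tgif1*, lower in apical cells (-1.65 ± 0.39, edgeR, adjusted p = 0.0404). The medians were 0.65 for the list, 1.60 for the members and 0.05 for all genes.

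In precursor stages 3 of 6 list genes tested were higher (*Tgif1*, *Tgif2* and *Pbxip1*) and 1 lower (*Pknox2*) than in immature VSNs. *Tgif1* differed by 2.22 and *Pbxip1* by 2.31 on the log2 scale, *Tgif2* had 14 UMIs against 0, at least 8.10-fold, and *Pknox2* had 1 UMI against 36, a ratio of 0.0482 (interval 0.00119 to 0.286). From immature to mature apical VSNs 3 of 5 fell, *Pknox2* by 4.06, *Tgif1* by 1.27 and *Pbx4* by 1.03, and *Pbxip1* rose from 2 to 101 UMIs, a ratio of 9.90 (2.67 to 82.8). The list's medians were 1.52 and -1.03 in these comparisons, those of the members -0.48 and -0.29, and those of all genes -0.01 and 0.10. Of all genes, edgeR called 39.0% and 37.0% in them.

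In sustentacular against basal cells *Pbxip1* was higher (0.59), among 7 list genes tested. *Tgif2* (4 against 185 UMIs, -4.12) and *Irx3* (1 against 46 UMIs, a ratio of 0.0713) were lower. The medians were -0.49 for the list, -0.71 for the members and -0.05 for all genes, of which 40.2% were called. In endothelial against stromal cells 4 of 8 were higher, *Irx3* by 1.98, *Irx5* by 2.27, *Pknox2* by 1.47 and *Tgif1* by 1.74. *Tgif2* (-1.17), *Pbxip1* (-1.63) and *Mkx* (0 against 13 UMIs, at least 5.43-fold lower) were lower. There the medians were 0.46 for the list, -1.75 for the members and 0.01 for all genes, of which 41.1% were called. Of the 43 Hox symbols, antisense transcripts of Hox clusters included, none had enough UMIs to be tested in the other 5 comparisons. Between endothelial and stromal cells 4 were tested and called higher in endothelial cells, as 19.4% of all genes were. Endothelial cells alone brought these 4 to the 10 UMIs needed, so higher was the only direction open to a call. These were *Hoxd8* (70 UMIs against 1, 55.9-fold, with an interval of 9.71 to 2239), *Hoxd9* (41 against 0, at least 10.9-fold), *Hoxd4* (38 against 0, at least 10.1-fold) and *Hoxd3os1* (50 against 0, at least 13.3-fold). *Hoxd9* was also among the leading genes of the endothelial cluster of 36 cells, whose part in these counts was not tested. The same comparison gave lower levels of *Meis1*, *Meis2*, *Meis3* and *Pbx3* in endothelial cells.

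Cells thinned to 3000 UMIs also showed which members and branch genes were found together. *Meis2* seldom shared a cell with *Tfap2e* in early immature VSNs or with *Bcl11b* in precursors. Among early immature VSNs, *Tfap2e* was found in 2 of 89 cells with *Meis2* (2.25%, exact 95% interval 0.27% to 7.88%) and in 24% of cells without it (13.1% to 38.2%). Unthinned, the shares were 5.38% and 36.4%. *Bcl11b*, a factor of basal VSN differentiation, was found in 0 of 37 precursors with *Meis2* (up to 9.49%) and in 34.8% of those without it (21.4% to 50.2%), or 4.76% and 55.8% unthinned. At the early immature stage *Bcl11b* was found in 50.6% of cells with *Meis2* and 50% of those without it, or 63.4% and 72.7% unthinned.

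*Pbx3* was found more often beside *Meis2* in early immature VSNs, in 48.3% of cells with *Meis2* (37.6% to 59.2%) and 22% of those without (11.5% to 36.0%), or 72.0% and 38.2% unthinned. In mature apical VSNs the shares were close, at 26.8% and 23.8%. Any Meis gene was found in 98.9% of immature apical VSNs and *Pbx2* or *Pbx3* in 18%, against 9.46% and 10.1% of immature basal VSNs, where 0 of 148 thinned cells held both. In mature VSNs the corresponding shares were 86.8% and 29.4% in apical and 7.41% and 19.4% in basal cells. There 0 of 108 mature basal cells held both. With so few thinned basal VSNs holding either, these counts of 0 cannot show that the genes are kept apart. Unthinned, *Pbx3* was found in 6 of 12 immature basal VSNs with *Meis2* and in 22.5% of those without it. For mature basal VSNs this was 10 of 12 and 51.5%. Basal cells had a Meis gene in 63.1% and one of these Pbx genes in 7.04% of cells, and sustentacular cells in 49.6% and 6.20%. These shares pool cells of both libraries and were not tested.

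Likeness of pattern was measured over the 11 groups as Pearson's r of log2(CPM + 10), among 13058 genes, with libraries pooled. *Meis1* was most like *Ppil6* (0.924), *Eya2* (0.875) and *Zfp64* (0.871). The genes most like *Meis2* were *2700033N17Rik* (0.868), *4932422M17Rik* (0.859) and *Bop1* (0.841), and *Meis1* stood at rank 6 (0.813). For *Meis3* they were *Zfp618* (0.937), *Shisa2* (0.893) and *mt-Co3* (0.889). For *Pbx2* they were *Tmem161a* (0.925), *Uqcrb* (0.907) and *Cops7a* (0.896), and its r with *Meis1* was -0.74. The highest value was that of *Pbx3* with *Hmgcll1* (0.960), followed by *Vwa3b* and *Fam135a* (both 0.928). The points share libraries and differ in depth, with median UMIs per cell from 5452 to 18146.5, so these values describe these 11 groups.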

How the data were processed

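The authors processed reads with bcl2fastq, Cell Ranger 4 and Seurat 3.2.3 (mm10), per the submitters' notes, and deposited raw UMI counts per gene and barcode for 2 libraries, with no normalization in the values. Library totals were 108005626 and 95442231 UMIs, and no columns of other samples were left aside (0). The filter kept genes in at least 3 barcodes (21823 of 32285) and cells with 200 to 9000 genes and under 5% mitochondrial UMIs. Clustering used Seurat 5.3.0 under R 4.3.3 (2000 variable genes, 30 principal components, resolution 0.8), and the neural lineage again with 15 components at 0.8, leaving out the members and their families. A name required at least 3 markers 4-fold above the other cells, or 1.5-fold within the lineage, but not every cluster that reached this was named. Those left unnamed include a cluster of 683 cells, at a median of 1152 UMIs, that raised 4 of 5 markers of tuft cells. Its leading genes shared *Ugt2a2*, *Agr3* and *Gipc2* with those of the sustentacular cluster of 282 cells. Another unnamed cluster, of 55 cells, raised 6 of 6 immature neuron markers. A lineage cluster of 37 cells that raised 4 of 5 precursor markers was also left unnamed. Scrublet, through scanpy 1.11.5 (Python 3.11.15), called 68 of 5694 and 104 of 4898 cells as doublets at an expected rate of 8%. These were kept in the main results and left out in an alternative.

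UMIs were summed per library and group and tested with edgeR 4.0.16 (TMM, glmQLFit, glmQLFTest, two-sided, only the groups compared) where a gene reached 10 UMIs over the sums compared, and p-values were adjusted over all genes tested (Benjamini-Hochberg, threshold 0.05). The fit was also run on simulated counts, and the outcome is not given here. DESeq2 1.42.0 was an alternative. A fold against 0 UMIs uses a floor of 3 UMIs over the group. Counting intervals are exact 95% intervals and cover counting error only. Shares of cells were also computed after thinning each cell to 3000 UMIs, which left out shallower cells (0 to 161 per group described, 565 macrophages). Same-numbered sums come from the same library, which pairs them, and their deviations correlated at 0.0533 to 0.216 across genes. Sums of the libraries differed beyond sampling noise (chi-square per degree of freedom 2.14 to 6.57). The members, lists and tests were chosen with earlier results of these data known. Named genes are all 5 members, the TALE and Hox list genes called (1 listed gene is not reported here), and the 3 genes most alike to each member. Library totals without scaling factors were added as an alternative after the data had been seen. Figures used matplotlib 3.10.9.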

Additional observations from a re-analysis of the deposited data

Results flagged for a closer look

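The branch difference of *Meis2* differed between immature and mature VSNs by a test of the difference itself. The log2 change, mature minus immature, was -1.68 ± 0.34 (SE, edgeR, adjusted p = 0.0330), from an apical minus basal difference of 6.75 in immature to 5.07 in mature VSNs. It kept its call with the library as a block (-1.69, adjusted p = 0.000352), DESeq2 (0.00401), RLE size factors (0.0302), no scaling factors (0.0266), no filter on low counts (0.000809) and filterByExpr (0.0216). It was not called after thinning (-1.07, adjusted p = 0.829), at a resolution of 0.5 (-0.59, adjusted p = 0.414), with a mitochondrial limit of 10% (-0.14, adjusted p = 0.961), without doublets (-0.10, adjusted p = 1.00) or with members and families in the clustering (-0.06, adjusted p = 1.00). The immature basal level behind it came from 24 UMIs, found in 12 of 154 cells. Of these UMIs, 10 came from library 2 of the cluster of 54 cells, where 5% of cells held *Meis2*, a share that stands for 1 cell.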

How the results depend on the processing

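Counts of called genes moved by more than 1.5 times under some alternatives. Between immature branches 801 became 1339 with the replicate block, 291 with DESeq2 and 363 thinned, and between mature branches 1235 became 2441 with the block, 2173 with no filter and 270 thinned. For precursor stages 4734 became 2282 with DESeq2, 2045 thinned and 2930 at a resolution of 0.5. From immature to mature apical VSNs 4717 became 2476 thinned, for sustentacular against basal cells 5551 became 3560 with DESeq2 and 3103 thinned, and for endothelial against stromal cells 5620 became 3632 with DESeq2. The interaction went from 173 to 672 with the block, 524 with no filter and 42 thinned.

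Of the members' tested values under alternatives, 321 kept direction and call, 8 gained a call, 23 lost one and 9 reversed. The pairing by library, as a block, changed no member's call but that of *Meis1* in precursor stages (-0.56). *Meis2* in precursor stages against immature VSNs reversed to 0.39 (adjusted p = 0.203) in 1 fit of all groups, whose contrast averages the log levels of both branches instead of summing their UMIs. There *Meis1* and *Pbx3* reversed to 0.19 and 0.18 at a resolution of 0.5. In the interaction, where neither value was called, *Meis1* reversed to 0.37 (mitochondrial limit 10%), 0.046 (without doublets) and 0.15 (members in the clustering), *Pbx3* to 0.45 (thinned) and 0.0073 (members in the clustering), and *Meis3* to -0.016 (mitochondrial limit 10%). Apart from the fit of all groups, the cause of these changes was not tested.

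Leaving out either library left 1 sum per group and so values without a test, of which 50 of 62 stayed within the libraries' spread and none reversed a call. The immature branch difference of *Meis2* ranged from 5.15 to 7.0 (log2) over the tested alternatives. With 2 libraries, few cells in several groups and names rebuilt from markers, a missed call does not show that levels were alike, and *Meis3* and *Pbx2* lacked the UMIs for a test in up to 3 comparisons.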

Other observations

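In groups outside the comparisons, *Meis1* stood at 26.9 CPM and *Meis2* at 183 CPM in gland cells, which held little *Pbx3* (1.64 CPM). *Pbx2* was found in immune cells, at 27.7 CPM in macrophages, 40.4 CPM in neutrophils (50 UMIs) and 23.5 CPM in dendritic cells (65 UMIs). *Meis3* was at 9.72 CPM in macrophages (72 UMIs), and it was found in 0 of 365 dendritic cells, where a floor of 3 counts gives 0.822% of cells with a UMI. Olfactory ensheathing cells, the glia of the olfactory nerves, held *Meis3* at 18.4 CPM on 9 UMIs.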
